A study of Caenorhabditis elegans with 2 samples.

Results

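The regions described here are candidate regions from a UNC-62 ChIP-seq experiment on the autosomes of the nematode Caenorhabditis elegans that lie inside exons and away from promoters. Their list was deposited as peaks together with background, and the q values of the members ran from 0.151 to 0.960. They were taken from the authors' list of regions called on both replicates pooled (build ce11). A region was a member where its summit, the position of highest enrichment, lay in a coding or untranslated exon of a protein-coding transcript on chromosomes I to V. The summit also had to lie outside the stretch from 1000 bp upstream to 200 bp downstream of every protein-coding transcript start. Of 2155 pooled regions, 301 (14.0%) met this rule, and they made up 18.3% of the 1649 autosomal regions (95% exact binomial interval 16.4 to 20.2). The other 1348 autosomal regions comprised 601 at promoters, 360 in introns and 387 outside genes and promoters.

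UNC-62 is a homeodomain protein of the Meis class, which binds DNA together with Hox and Pbx-type partners and is known in the worm for patterning the embryo and the larval body. Chromatin immunoprecipitation with sequencing (ChIP-seq) recovers DNA that a tagged protein contacts directly or through other proteins. Transcription factors are commonly mapped to promoters and distal elements, and enrichment inside coding exons is the less familiar case. Both samples were whole animals of strain OP600, genotype unc119(ed3) with the integrated transgene wgIs600. The transgene adds unc-62 carrying TY1, EGFP and FLAG tags and an unc119 rescue gene, in a number of copies that was not determined here. The animals were pooled males and females, and no treatment is named. One label gives the stage as dauer, the arrested larva, and another gives D4 worms, so the stage is uncertain. The samples were 2 biological replicates in 1 group. No untagged, input or second-strain sample was analysed here, so no condition could be compared and every comparison is between kinds of region.

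The files give no read totals, so depth is unknown. Each replicate list held 30000 regions, of which 24038 in replicate 1 and 24082 in replicate 2 were autosomal. All these lists and the pooled list include background by design. At a q value below 0.05 there were 201 regions in replicate 1, 136 in replicate 2 and 0 in the pooled list. The reproducible list, which the authors thresholded by the irreproducible discovery rate (IDR), held 95 regions, 52 of them autosomal. These 95 are exactly the first 95 of the pooled list by signal, so membership in the reproducible list follows the pooled rank. The signal of a region is the authors' enrichment value on a scale that is not stated, and it is used only to rank regions within a list. Intervals below are 95% intervals for counting error over regions, which are not replicate animals. Shares were set against the other autosomal regions for 22 measures, without adjustment, and the interval of the difference (Newcombe) excluded 0 for 12 of them.

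Short stretches of the plus strand (WBcel235, the assembly of ce11) are shown for 10 members, to show the 2 hexamers that the motif results below turn on and the coding member of highest signal. Capitals mark GAGAGA, a GA-repeat unit, or its complement TCTCTC, in the first 6. Capitals mark TGACAG, the core recognised by Meis-class homeodomains, or its complement CTGTCA, in the next 3. The last is centred on the summit in dos-3 and holds neither. The sequences were read from the RefSeq assembly.
unc-62, chrV:4507974-4508003: agttggctggcaGAGAGAcagccttggcaa
unc-62, chrV:4508156-4508185: gaaaaattgtGAGAGAGAgtgaaaaagatg
F10C2.3, chrV:12021564-12021593: gtgagtgtcagtGAGAGAGAgtgtgtgtca
ugt-30, chrV:15123791-15123820: agaattggaaaaTCTCTCgagaatttgagg
tbx-9, chrIII:10340444-10340473: ttattattcaacTCTCTCtatctttgaaaa
lin-66, chrIV:13893054-13893083: tatgTCTCTCgcTCTCTCccttaaaacagt
atg-7, chrIV:11080163-11080192: tttattccgataCTGTCAgctgaacgaaga
hmg-1.2, chrIII:6281267-6281296: tgtagtttagtgTGACAGattatatgagaa
str-207, chrV:4952992-4953021: tacctgcaaatgTGACAGagctttcaaaag
dos-3, chrIII:836024-836053: gctcccagagccctggtttagtgaatggtg

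Most members lay in protein-coding sequence. Of the 301 summits, 245 (81.4%, 76.5 to 85.6) were in coding sequence, 46 (15.3%, 11.4 to 19.9) in 3′ untranslated regions (UTRs) and 10 (3.32%, 1.60 to 6.02) in 5′ UTRs. The autosomal exonic sequence away from promoters spans 18.1 Mb, of which 88.6% is coding, 10.1% is 3′ UTR and 1.25% is 5′ UTR. Per length, 3′ UTRs held 25.01 regions per Mb (exact Poisson interval 18.3 to 33.4) and coding sequence 15.2 per Mb (13.4 to 17.3). The 3′ UTR density was higher than the coding density, and the intervals did not overlap. The 5′ UTR density of 44.1 per Mb (21.1 to 81.1) rested on 10 regions, 3 of them at unc-62.

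Exons as a whole were not a preferred place. The class held 16.6 regions per Mb (14.8 to 18.6), against 26.9 per Mb at promoters (24.8 to 29.1), 15.9 per Mb in introns (14.3 to 17.7) and 19.8 per Mb outside genes and promoters (17.9 to 21.9). Its density overlapped that of introns within counting error and was lower than that of promoters. The class covers 22.0% of autosomal sequence and held 18.3% of the regions, a ratio of 0.831. The members were spread over the autosomes, with 57 on chromosome I, 53 on II, 54 on III, 56 on IV and 81 on V. Their density ran only between 15.1 per Mb on chromosome II and 17.5 per Mb on chromosome V, with overlapping intervals.

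Members had lower signal than the rest of the list. Their pooled signal ran from 15.5 to 82.4 with a median of 17.0 and quartiles of 16.2 and 18.7, against a range of 15.5 to 80.0, a median of 17.8 and quartiles of 16.4 and 20.2 in the other autosomal regions. The ranges overlap almost entirely, and the members sit towards the lower end. A signal above the autosomal median, which 50% of all autosomal regions have, was found in 120 members (39.9%, 34.3 to 45.6) and in 52.2% of the others (49.5 to 54.9). The difference was −12.4 percentage points (−18.3 to −6.13).

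The exonic share was also read in 5 bins of equal size, by signal, over the autosomal regions of the pooled list and of the first 2155 regions of each replicate list. In the pooled list, exonic regions made up 8.48% of bin 1, the highest (5.71 to 12.03), then 18.2%, 19.7% and 22.4%, and 22.5% of bin 5 (18.1 to 27.4). Among the first 2155 regions of the replicate 1 list the exonic share was 14.0% in bin 1 (10.5 to 18.2) and 20.96% in bin 5 (16.7 to 25.7). Among the first 2155 of replicate 2 it was 15.9% in bin 1 (12.2 to 20.3) and 24.5% in bin 5 (20 to 29.4). Bin 1 was the lowest of the 5 bins in these 3 sets, although the replicate 2 share peaked in bin 3 at 29.5%. Over the whole replicate lists, background included, exonic regions were 21.5% in replicate 1 and 25.2% in replicate 2, so the replicates differ in this share by themselves. Over those whole lists the share did not fall in the highest bin, with 20.9% in bin 1 and 20.8% in bin 5 of replicate 1, and 25.3% in bin 1 and 24.7% in bin 5 of replicate 2. In the lower bins of the pooled list the exonic share was close to the 22.0% that exonic sequence takes of the autosomes.

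**Figure D1:**
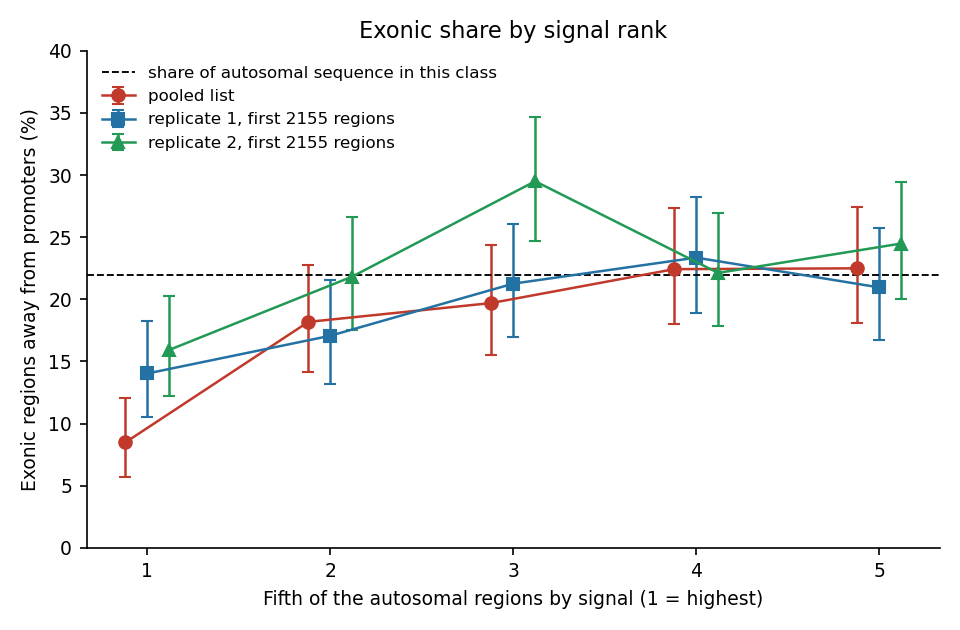
Share of autosomal regions that were exonic and away from promoters (y axis, percent) in 5 equal bins by signal (x axis, bin 1 highest), for the pooled list and for the first 2155 regions of each replicate, with 95% exact binomial intervals. The pooled share was 8.48% in bin 1 and 22.5% in bin 5, and the dashed line marks the 22.0% of autosomal sequence in the class.

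Few members were high in both replicates. A summit in the replicate 1 list within 200 bp was found for 252 members (83.7%, 79.1 to 87.7), against 88.5% of the other autosomal regions and 87.6% of all autosomal regions. For replicate 2 it was found for 260 members (86.4%, 82.0 to 90.0), against 87.9% of the others and again 87.6% of all. Only the first of these differences exceeded counting error (−4.78 points, −9.64 to −0.623, and −1.53 points, −6.16 to 2.36). Both replicates held a match for 211 members (70.1%, 64.6 to 75.2), against 76.6% of the others, where 75.4% of all autosomal regions had one (difference −6.46 points, −12.3 to −1.04). Every member had a match in at least 1 replicate, and 2 of all 1649 autosomal regions (0.121%) had none in either. By the rule of 3 counts the share of members without any match is at most 0.997% (exact upper limit 1.22%).

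A stricter measure asked for a match within the first 2155 regions by signal of each replicate, as many as the pooled list holds. In replicate 1 alone it was met by 92 members (30.6%, 25.4 to 36.1), against 40.1% of the others, where 38.3% of all autosomal regions met it (difference −9.49 points, −15.1 to −3.49). In replicate 2 alone it was met by 106 members (35.2%, 29.8 to 40.9), against 39.1% of the others, where 38.4% of all met it (difference −3.88 points, −9.69 to 2.24). The shortfall exceeded counting error in replicate 1 and not in replicate 2, and whether the replicates differ in it was not tested. In both replicates it was met by 11 members (3.65%, 1.84 to 6.44) and by 149 of the other autosomal regions (11.1%, 9.43 to 12.9), where 9.7% of all autosomal regions met it. The difference was −7.40 points (−9.80 to −4.22). Another 176 members (58.5%) were within the first 2155 of exactly 1 replicate, against 57.0% of the others and 57.3% of all. The remaining 114 (37.9%) were within that limit in neither, against 31.9% of the others and 33% of all. The reproducible list held 4 members (1.33%, 0.363 to 3.37) and 48 of the others (3.56%, 2.64 to 4.69), where 3.15% of all autosomal regions were in it (difference −2.23 points, −3.62 to −0.0185). Since that list is the top of the pooled list, this difference restates the lower pooled signal and is no separate measure of agreement between the replicates. The list held 4.83% of promoter regions (difference −3.50 points, −5.67 to −0.998). It held 2.78% of intronic regions and 2.33% of regions outside genes and promoters, and the intervals of these differences included 0.

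The share within the first 2155 of both replicates was 3.65% for exonic regions and 13.1% for promoter regions, a difference of −9.49 points (−12.8 to −5.78). Against regions outside genes and promoters, at 10.6%, it was −6.94 points (−10.8 to −3.08), and against intronic regions, at 8.06%, −4.40 points (−8.05 to −0.744). For a match in both replicates at any rank, the difference from intronic regions was −2.12 points with an interval of −9.07 to 4.76. The lower pooled signal of the members moves with this measure. In bin 1 of the pooled signal, 8 of 28 members (28.6%, 13.2 to 48.7) met it, against 128 of 302 others (42.4%, 36.7 to 48.2), and these intervals overlap. In bins 2 to 5 at most 3.33% of members and at most 4.81% of the others met it. In bin 5 the order was reversed, at 1.35% of members and 0.392% of the others, on 1 region in each group.

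**Figure D2:**
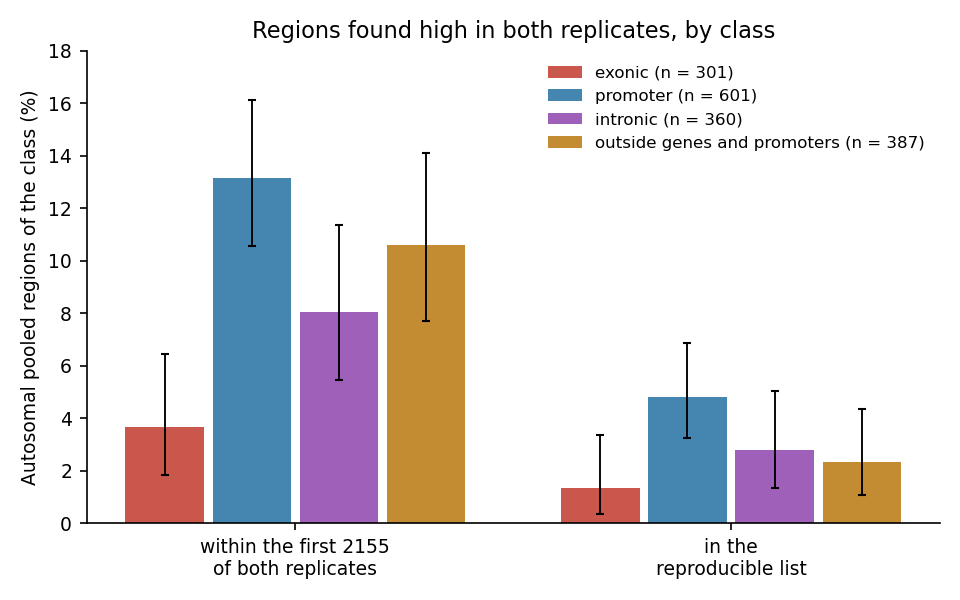
Share of the autosomal pooled regions of each class (y axis, percent) within the first 2155 regions of both replicate lists and in the reproducible list, with 95% exact binomial intervals. Exonic regions are at 3.65% and 1.33%, below promoter regions at 13.1% and 4.83% on both measures. In the reproducible list, intronic regions are at 2.78% and regions outside genes and promoters at 2.33%.

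Where both replicates held a match, their signals ran in opposite directions across members. Spearman's rho between the replicate signals was −0.45 over 211 members and −0.15 over 1032 other autosomal regions, and −0.50 over the 208 members away from unc-62. These are descriptions over regions of 2 libraries, in a list kept for pooled signal. How far that choice of list shapes rho was not tested. The lower-ranked replicate of a member had a median rank 5.39 times that of the higher-ranked one, against 4.93 times in the others. A gap of 10 times or more was seen in 68 of the 211 members (32.2%), against 34.3% of the others. Replicate 1 gave the higher rank in 98 of the 211, so neither replicate led throughout.

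**Figure D3:**
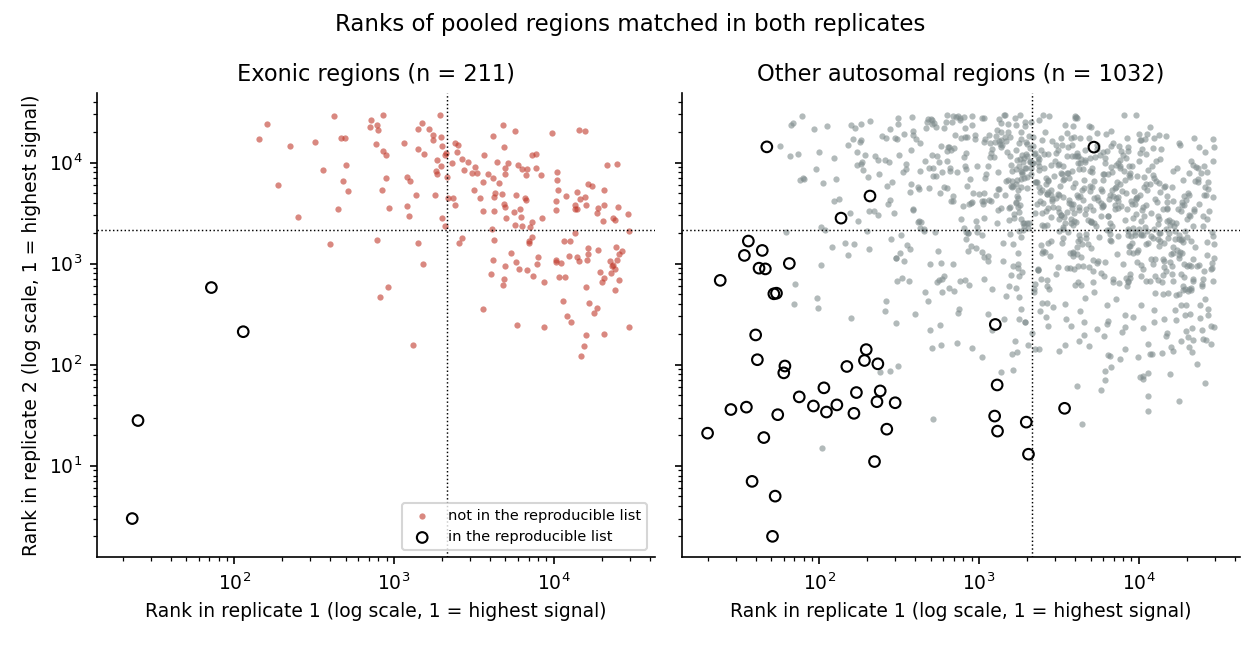
Rank of each pooled region in the replicate 1 list (x axis) and in the replicate 2 list (y axis), both on log scales with 1 the highest signal, for 211 exonic regions (left) and 1032 other autosomal regions (right). Dotted lines mark rank 2155 and black circles mark the reproducible list. Of the exonic points, 11 lie in the lower left corner, 4 of them circled.

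The 4 reproducible members lay at 3 genes. At unc-62 itself, a pair of overlapping regions (V 4507810 to 4508153 and V 4508025 to 4508368) had the highest signals of the class. The first had a pooled signal of 82.4, with 38.6 in replicate 1 (rank 23) and 42.2 in replicate 2 (rank 3). The second had 61.0 pooled, with 33.7 in replicate 1 (rank 25) and 21.8 in replicate 2 (rank 28). Both replicates therefore placed both regions near the top of their 30000. T23G4.127 (IV 13695732 to 13696075) carried its region in the 3′ UTR, in the last of 4 exons, with 34.8 pooled, 19.8 in replicate 1 (rank 72) and 11.9 in replicate 2 (rank 580). In dos-3, which encodes a Delta- and OSM-11-like protein of the Notch ligand type, the region (III 835867 to 836210) lay in coding sequence of the last of 11 exons. Its signal was 33.9 pooled, 17.0 in replicate 1 (rank 114) and 13.9 in replicate 2 (rank 212). It was the only coding member in the reproducible list, and every base of it was exonic.

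The other 7 members within the first 2155 of both replicates had less signal. They were the third unc-62 region (24.3 pooled), rnp-8 (23.6), F10C2.3 (23.3), hmg-1.2 (20.8), noca-1 (19.5), ain-2 (19.3) and tbb-2 (15.6). The third unc-62 region (V 4509398 to 4509741) ranked 1318 in replicate 1 and 157 in replicate 2. F10C2.3 encodes a sulfatase-domain protein and ranked 913 in replicate 1 and 585 in replicate 2, with its summit in coding exon 2 of 8. The region of hmg-1.2, a high mobility group protein, ranked 1521 in replicate 1 and 1003 in replicate 2, also in coding exon 2. Coding sequence of noca-1, which organises microtubules away from centrosomes, held a region ranked 1413 and 1618. Its summit was exonic in 1 of the 6 noca-1 transcripts that span it and intronic in the other 5. The regions of rnp-8, an RNA-binding protein, ain-2, a component of the microRNA silencing complex, and tbb-2, a beta-tubulin, were all in 3′ UTRs of the last exon. Although tbb-2 ranked 823 in replicate 1 and 470 in replicate 2, it stood at 2088 in the pooled list, near its end.

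By part of the gene, the 11 were 4 of 245 coding members (1.63%, 0.447 to 4.13), 4 of 46 in 3′ UTRs (8.70%, 2.42 to 20.8) and 3 of 10 in 5′ UTRs, all of these at unc-62. The 3′ UTR share was higher than the coding share by 7.06 points (1.24 to 18.7), on 4 regions each. Matches in both replicates at any rank were found for 71.7% of 3′ UTR members and 69.4% of coding members, with overlapping intervals.

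Among the 25 members of highest signal, 18 were coding, 4 were in 3′ UTRs and 3 in the 5′ UTR of unc-62. A match in both replicates was found for 21 of them, and 8 were within the first 2155 of both, 13 of exactly 1 and 4 of neither. Over all autosomal regions, at any pooled signal, these shares were 75.4%, 9.7%, 57.3% and 33%. In bin 1 of the pooled signal, 28.6% of members and 42.4% of the others were within that limit in both. Single members had large gaps between the ranks. Gaps of 10 times or more were not particular to members, at 32.2% of those matched in both against 34.3% of the others. The region in coding sequence of T12B3.2, a transporter of the major facilitator superfamily, ranked 161 in replicate 1 (signal 15.4) and 24052 in replicate 2 (signal 4.62). That of ugt-30, a glucuronosyltransferase, ranked 223 in replicate 1 and 14625 in replicate 2. Others leaned to the second replicate. The atg-7 region, in the gene for the E1-like enzyme of autophagy, ranked 19995 in replicate 1 and 652 in replicate 2. In rol-3, which encodes a receptor tyrosine kinase, the ranks were 12799 in replicate 1 and 263 in replicate 2.

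Other members of the 25 were matched in both replicates with a smaller gap between the ranks, most of them within the first 2155 of 1 replicate. The iars-1 region, in the cytoplasmic isoleucine tRNA ligase gene, had 25.4 pooled and ranked 252 in replicate 1 and 2903 in replicate 2. Ranks of 444 in replicate 1 and 3494 in replicate 2 were found at Y54G2A.37, a C-type lectin gene, with 23.3 pooled. The eat-5 region, in an innexin gene of gap junctions, had 21.3 pooled and ranked 1373 and 4805. That in kri-1, a FERM-domain protein, had 20.8 pooled and ranked 890 and 7012. At tag-322 the ranks were 3609 and 357 (24.6 pooled), at xbx-6, a Lifeguard-like protein, 5633 and 3241 (21.1 pooled), and at C05D11.8 501 and 9504 (22.9 pooled). The replicate order in these pairs is replicate 1, then replicate 2.

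A match in 1 replicate only was found for 4 of the 25. At agr-1, the worm agrin gene, the region (24.1 pooled) was matched only in replicate 2, at rank 2847. That in dct-17, a CUB-like domain gene, had 22.2 pooled and also only a replicate 2 match, at rank 5358. F36G9.3, a membrane transporter gene with 22.5 pooled, was matched only in replicate 1, at rank 3384. The last case, R04B5.7, belongs to a group of neighbours.

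Only 3 genes held several members. They were unc-62 with 3 regions over 1588 bp, pck-2 with 2 over 1562 bp and lin-66 with 2 over 1073 bp. The 2 regions of pck-2, a phosphoenolpyruvate carboxykinase gene of gluconeogenesis, had 22.3 pooled in the coding part and 16.5 in the 3′ UTR. Those of lin-66, a gene of the developmental timing pathway, had 19.5 in the 3′ UTR and 16.6 in coding sequence. In neither gene was a region within the first 2155 of both replicates. In all, 302 genes held a member in an exon, or 1.91% of the 15771 autosomal protein-coding genes with exonic sequence away from promoters, and 5 members lay in exons of more than 1 gene. A pooled region in their promoter window was found for 23 of the 302 (7.62%), against 3.83% of the 15771. The genes with a member had a median of 1428 bp of such exonic sequence, against 859 bp.

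The unc-62 regions were exonic through a single transcript. The gene (V 4497461 to 4511449, plus strand) has 18 annotated protein-coding transcripts. All 3 summits lay in the first exon, of 2945 bp, of a transcript with 2 exons, and in an intron of the other 17. They were 10521, 10736 and 12109 bp from the annotated start of the gene, and 778, 993 and 2366 bp from the nearest transcript start. Within 8 kb of the gene the pooled list held 11 regions, of which 3 were exonic, 3 at promoters, 1 intronic and 4 upstream. The third reproducible region there, at 2181 bp, was a promoter region with a pooled signal of 50.8. The strain carries transgenic unc-62 as well as its own, and reads from the transgene and from the gene itself cannot be told apart. The number of transgenic copies was not determined and no input sample was analysed, so any share of extra unc-62 DNA in these signals was not tested. Across all members, 288 (95.7%, 92.7 to 97.7) were exonic in every transcript that spans the summit, and 13 were intronic in at least 1.

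**Figure D4:**
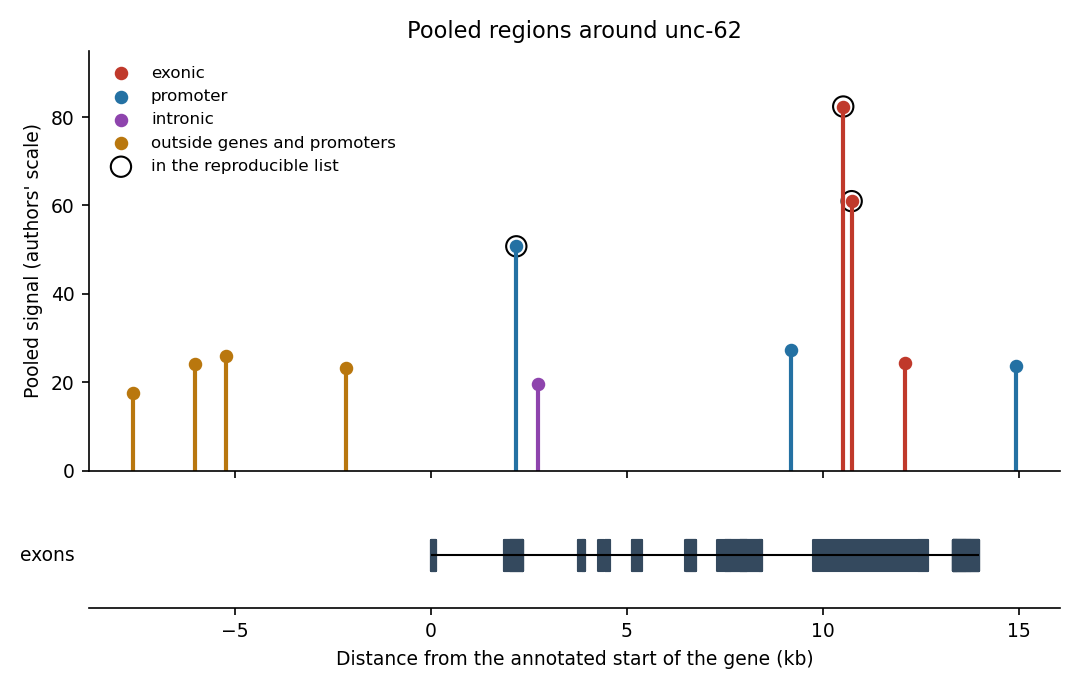
Pooled regions around unc-62 (upper panel, signal on the authors' scale) against the distance of the summit from the annotated start of the gene (x axis, kb), with the exons of all transcripts below. The 3 exonic regions stand at 10521, 10736 and 12109 bp, above the exon of 2945 bp, and the first reaches 82.4.

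Another pooled region lay within 5000 bp of 90 members (29.9%, 24.8 to 35.4), against 35.6% of the other autosomal regions (33.0 to 38.2) and 34.6% of all autosomal regions. These intervals overlap. A group on chromosome V held members in 3 neighbouring genes, R04B5.6, R04B5.5 and R04B5.7, between V 10086143 and V 10089984. R04B5.6 encodes a sorbitol dehydrogenase and R04B5.7 a basic helix-loop-helix protein, by their RefSeq product names. Their pooled signals were 22.5 at R04B5.6, 18.4 at R04B5.5 and 25.3 at R04B5.7. In replicate 1 they ranked 187, 1163 and 136, but in replicate 2 they ranked 5974 and 15754, with no match at R04B5.7. The pooled region next to them, at a promoter, also ranked 200 in replicate 1 with no replicate 2 match. All of these regions were therefore high in replicate 1 alone. No 36-base word within 100 bp of these 4 summits occurs elsewhere in the genome.

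The GA-repeat hexamer set members apart from the rest of the list. GAGAGA was sought on both strands within 100 bp of the summit, a window of 201 bp. It was present at 34 members (11.3%, 7.95 to 15.4) and at 355 of the other autosomal regions (26.3%, 24.0 to 28.8), where 23.6% of all autosomal regions held it. The difference was −15.04 points (−19.0 to −10.4). It was of like size against promoter regions (26.1%; −14.8 points, −19.6 to −9.55). Against intronic regions (22.2%) the difference was smaller, at −10.9 points (−16.5 to −5.22). Against regions outside genes and promoters (30.5%) it was −19.2 points (−24.9 to −13.2).

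At members the hexamer was as frequent as in exonic sequence in general. Windows 1000 bp to either side of members held it in 11.0% (8.58 to 13.7), and windows centred on every exonic base away from promoters in 10.6%. For the other autosomal regions the windows 1000 bp away held it in 13.2% (11.98 to 14.6), against their 26.3% at the summit. Of all promoter windows 11.4% held it. So the summit share stood above the neighbouring share in the other regions and not in the members.

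The difference was found in each replicate on its own list. Among the first 2155 regions, exonic summits held GAGAGA in 11.1% and other autosomal summits in 24.3% in replicate 1, and in 10.6% and 21.8% in replicate 2. In bin 1 of the pooled signal 4 of 28 members (14.3%, 4.03 to 32.7) held it, against 122 of 302 others (40.4%, 34.8 to 46.2). In bins 2, 3 and 5 the members' shares of 6.67%, 10.8% and 9.46% were also below the others' 26.3%, 24.5% and 20.4%. In bin 4 the shares were close, at 16.2% of members (8.67 to 26.6) and 17.6% of the others (13.1 to 22.8). Coding members held it in 8.98% (5.71 to 13.3), 3′ UTR members in 15.2% (6.34 to 28.9) and 5 of the 10 5′ UTR members.

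**Figure D5:**
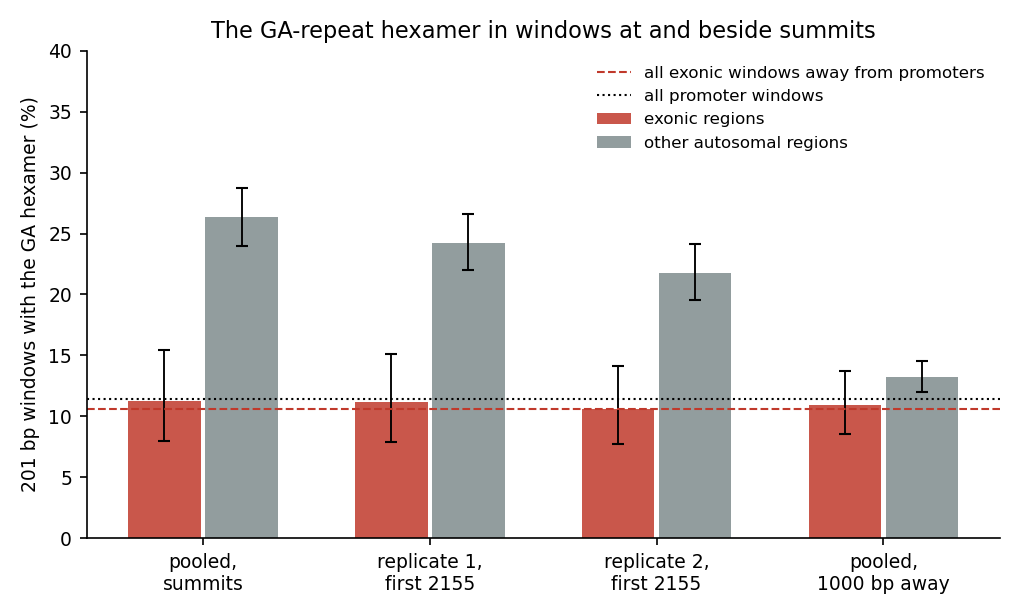
Share of 201 bp windows with the GA-repeat hexamer (y axis, percent, 95% exact binomial intervals) at pooled summits, at summits of the first 2155 regions of each replicate, and 1000 bp to either side of pooled summits, for exonic regions (left bar of each pair) and other autosomal regions (right bar). Exonic summits are at 11.3% and other summits at 26.3%; lines mark all exonic windows (10.6%) and all promoter windows (11.4%).

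Of the 34 members with the hexamer, 20 had it on the strand of the gene, 12 on the opposite strand and 2 on both. The first unc-62 region held 5 copies and the second held 2, overlapping ones counted, and the copy nearest each summit is printed above, centred 6.5 bp and −26.5 bp from it. F10C2.3 held 3. The copies of ugt-30, tbx-9 and lin-66 shown lie farther off, at −77.5, 96.5 and −79.5 bp. Of these 6 regions, those at unc-62 and F10C2.3 were within the first 2155 of both replicates and those at ugt-30, tbx-9 and lin-66 were not. The tbx-9 region, in a T-box transcription factor gene, ranked 421 in replicate 1 and 28722 in replicate 2. Neither T23G4.127 nor dos-3 held GAGAGA.

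The Meis-class core did not distinguish members. TGACAG was within 100 bp of 25 members (8.31%, 5.45 to 12.02) and of 8.46% of the other autosomal regions (7.03 to 10.1), where 8.43% of all autosomal regions held it. The difference of −0.151 points had an interval of −3.22 to 3.76. Windows 1000 bp to either side of members held it in 8.31% as well, and all exonic windows in 7.78%. It was at 24 coding members, 1 5′ UTR member and 0 of the 46 3′ UTR members. Among the members printed above, hmg-1.2 was within the first 2155 of both replicates. The regions of atg-7 and of str-207, a chemoreceptor gene, were not, and str-207 had no replicate 2 match.

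Other motifs were sought the same way, and none of the 7 contains another, although some can overlap at their ends. TGATTGAC, the first letters of the composite site of Pbx-type and Meis-class proteins, was at 4 members (1.33%) and 1.41% of the others, where 1.39% of all autosomal regions and 0.661% of exonic windows in general held it. TGATNNAT, a pattern of Hox and Pbx-type partners, was at 58 members (19.3%) and 15.9% of the others, where 16.5% of all held it (difference 3.39 points, −1.15 to 8.57). Exonic windows in general held it in 18.5%. AGATAA, the GATA factor site, was at 34 members (11.3%) and 12.9% of the others, where 12.6% of all, and 10.2% of exonic windows in general, held it. CACGTG, an E-box, was at 13 members (4.32%) and 4.303% of the others, where 4.31% of all, and 4.74% of exonic windows in general, held it. For these 4 motifs the interval of the difference included 0. GCGCGA, a GC-rich hexamer, was at 4 members (1.33%, 0.363 to 3.37) and 4.303% of the others (3.28 to 5.53), where 3.76% of all held it (difference −2.97 points, −4.44 to −0.722). All exonic windows held it in 1.53% and all promoter windows in 2.53%.

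The groups had the same median base composition, with differences inside the list. The median GC content of the window was 37.8% at members (quartiles 34.3 and 40.8) and 37.8% at the other autosomal regions (33.3 and 42.8). In bin 1 of the pooled signal the median was 39.3% at members and 41.8% at the others, whereas in bins 4 and 5 it was 38.3% at members and 35.8% at the others. Over all exonic windows away from promoters it was 38.8%. Sequence of members was mostly single-copy. Every 36-base word of the window occurred once in the genome at 296 members (98.3%, 96.2 to 99.5), against 96.5% of the others, where 96.8% of all autosomal regions were single-copy. Soft-masked sequence, which marks repeats in the RefSeq file, covered at least 50% of the window at 14 members (4.65%) and at 10.8% of the others, where 9.7% of all autosomal regions were so covered (difference −6.18 points, −8.75 to −2.80). A non-coding gene, pseudogenes and piRNA genes left out, lay within 200 bp of 4 members (1.33%) and of 13.6% of the others, where 11.3% of all autosomal regions had one. Members were chosen as lying in protein-coding exons. The soft-masked and non-coding shares were not taken for exonic sequence in general, so how far they follow from that choice was not tested.

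Within genes, members were spread along the transcript. The summit lay at a median of 56.7% of the spliced length (quartiles 34.0 and 78.3), counted from the 5′ end of the longest host transcript. It was in the first exon for 17 members and in the last for 91. The exon was 293 bp long at the median, whereas the median over all exonic bases away from promoters was 346 bp. The whole region was exonic for 80 members, and the median member was 82.8% exonic. Regions are 344 bp wide at the median, more than the median exon, and most members also cover sequence outside protein-coding exons. How much of that sequence is intron was not measured. The nearest protein-coding start was 208 to 11137 bp away, with a median of 1250 bp.

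Among members, distance from the start made little visible difference to the share within the first 2155 of both replicates. Of the 47 members between 200 and 500 bp from a start, 0 were within the first 2155 of both replicates, which allows up to 6.38% by the rule of 3 counts (exact upper limit 7.55%). The counts were 3 of 75 members from 500 to 1000 bp (4%) and 4 of 96 from 1000 to 2000 bp (4.17%). Beyond 2000 bp there were 4 of 83 (4.82%), and the intervals overlap. The pair of reproducible unc-62 regions, at 778 and 993 bp, was among the 3 from 500 to 1000 bp. The third unc-62 region, at 2366 bp, was among the 4 beyond 2000 bp. GAGAGA was at 12.8% of members from 200 to 500 bp, 14.7% from 500 to 1000 bp and 12.5% from 1000 to 2000 bp. Beyond 2000 bp its share was lower, at 6.02% (1.98 to 13.5), with overlapping intervals. The closest members to the limit of the rule were in F25G6.8, F28A10.4 and T19H5.4, at 208, 212 and 219 bp downstream of a start, with pooled signals of 17.6, 17.4 and 18.3. Just outside it were exonic summits in gpa-9 at 200 bp and in nhr-36 and ufm-1 at 194 bp, with 17.8, 20.8 and 15.6. In all 160 autosomal regions had an exonic summit inside a promoter window. Of these 14 (8.75%, 4.87 to 14.2) were within the first 2155 of both replicates and 36 (22.5%, 16.3 to 29.8) held GAGAGA.

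The lists of gene groups, made by symbol, held few members each. Over all 15771 genes 1.91% held a member. The chemoreceptor genes, which encode receptors of sensory neurons, held 21 members in 21 of 1316 genes (1.60%, 0.990 to 2.43). The highest of these were str-207 (20.8 pooled), srh-208 (19.0) and sru-11 (18.9). Cuticle collagen and cuticle shape genes had 3 of 159 (1.89%, 0.391 to 5.41), namely rol-3, dpy-10 and dpy-20, and of these dpy-10 encodes a collagen. Nuclear receptor genes had 4 of 244 (1.64%, 0.448 to 4.14), led by nhr-97 (18.2 pooled), nhr-156 and nhr-232 (16.3 and 16.2). C-type lectin genes had 4 of 232 (1.72%), led by clec-32 (19.2), clec-127 (18.8) and clec-203 (16.7). Detoxification genes of the cytochrome P450 and UGT families had 3 of 130 (2.31%), which were ugt-30, ugt-43 and cyp-32A1 with 21.4, 19.0 and 17.8. The intervals of all 5 groups include the share over all genes.

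The other groups held 0 to 3 genes with a member each. F-box and BTB genes had 3 of 388 (0.773%, 0.160 to 2.24), fbxa-84, math-33 and bath-44. The homeobox list had 2 of 66 genes, unc-62 and vab-10, and vab-10 encodes a spectraplakin of the cytoskeleton that the list takes in by its symbol. Synapse and channel genes had 3 of 144, with unc-62 again among them by its symbol. Splicing genes had prp-39 (19.95 pooled) and prp-18 (16.6) out of 35. Genes with lethal or embryonic names had let-526 and let-268 of 52, and prion-like genes had pqn-32 and pqn-80 of 48. A single gene was found on each of the lists of tubulins and actins (tbb-2 of 13) and muscle (the titin homologue ttn-1 of 18). The same held for the lists of translation factors (eif-3.C of 30) and chaperones (the chaperonin subunit cct-4 of 22). The lists of dauer and insulin signalling (din-1 of 57) and of Wnt and Notch (the Notch receptor lin-12 of 23) also held 1 each. The Wnt and Notch list leaves out dos-3, so its count is not that of the pathways. The din-1 region, in a gene for a DAF-12-interacting protein, had 17.6 pooled with rank 12529 in replicate 1 and no match in replicate 2. No ribosomal protein gene of 48 held a member, which allows up to 6.25% by the rule of 3 counts (exact upper limit 7.40%). The chromatin regulator list, made by symbol, does not name every gene of that kind. None of its 49 genes held a member, which allows up to 6.12% for the list (exact upper limit 7.25%). None of 30 germline genes, 4 histone genes and 1 vitellogenin gene had one either, and these lists are too short to bound the share closely. Ribosomal protein genes have only 0.0152 Mb of exonic sequence away from promoters.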

How the data were processed

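UNC-62 ChIP-seq of 2 replicates was used as deposited region lists on build ce11: 1 list per replicate, a pooled list, and the list labelled optimal IDR-thresholded, called reproducible here. The deposited signal (column 7) and −log10 q (column 9) of each region are the authors' values; for the pooled lists they have no SD or n. Per the labels chromatin was sonicated; for the aligner, peak caller and control handling, nothing was found (not given in the sources used here). Lists on ce10 were not used. Depth is unknown.

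Summits were classed on WBcel235 with Ensembl release 115. Matches were summits within 200 bp, and motifs were sought within 100 bp of summits. Shares have exact binomial intervals, densities exact Poisson intervals and differences Newcombe intervals, all at 95%. With 1 group no test over samples exists, and no p-value was computed. The steps were tested on simulated data. Intervals came from scipy 1.17.1, arrays from numpy 2.4.6 and figures from matplotlib 3.10.9, under Python 3.11.15.

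Members, gene lists, motifs and measures were chosen with earlier results of these data known. Named were genes at the 25 members of highest signal, at reproducible members, with several members, with up to 3 members of each of 22 gene lists, and unc-62; other genes were named after their values were seen. Roles are textbook knowledge or RefSeq product names. Alternatives varied the promoter window, exon type, signal limit, matching, rank limit, motif window, word length and replicate.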

Additional observations from a re-analysis of the deposited data

How the results depend on the processing

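Of 94 alternative values for 14 results, 61 stayed within the interval, or within 1.5 times the count, of the reported value. Both main differences kept their direction under every alternative run, with intervals below 0. For ranking within the limit in both replicates they were −3.42 to −12.1 points over 10 settings, with −3.42 for a limit of the first 1000. For GAGAGA they were −8.56 to −23.2 points over 9 settings. The split by bins of pooled signal was not among these settings. In that split the first difference was reversed in bin 5, on 1 region in each group, and the GAGAGA shares were close in bin 4. With a promoter window of 500 bp upstream to 100 bp downstream, the exonic share was 22.2% and 6 genes held several members. With 2000 bp upstream to 500 bp downstream there were 190 members, 11.52% of autosomal regions, and 1 such gene. With coding sequence only, the share within the first 2155 of both replicates was 1.63%, the reproducible list held 1 member, 0 genes had several, 14.9% of autosomal regions were members and 100% were coding by construction. Above the median autosomal signal there were 120 members (14.6% of regions), with a median signal of 19.1, replicate 1 matches for 88.3%, matches in both for 75.8%, 8.33% within the first 2155 of both, TGACAG at 4.17% and 1 gene with several. Matching within 100 bp gave 75.4% in replicate 1, 79.1% in replicate 2 and 56.8% in both. Among the first 5000 of each replicate, 13.3% of members were high in both. With 50 bp to either side, GAGAGA was at 6.64%, TGACAG at 3.65% and median GC 38.6%; with 250 bp these were 27.2%, 22.6% and 37.1%. All members (100%) were single-copy with words of 50 bases. Leaving out 1 replicate at a time gave exonic shares of 19.3% to 22.8%, median GC of 37.8% to 38.8% and coding shares of 78.6% to 86.0%. Without the regions at unc-62, an alternative chosen after seeing the data, 2 reproducible members remained, at T23G4.127 and dos-3. No paired analysis was possible because both replicates form 1 group. Depth is unknown, signals rank regions within a list only, and intervals cover counting error over regions of 2 libraries.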
